A study of Mus musculus with 6 samples.

Results

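The genes described here surround Ackr4 on mouse chromosome 9 and were chosen by their position. They are Ryk, Srprb, Topbp1, Cdv3, Acad11, Dnajc13, Nudt16 and Atp2c1, 8 of the 54532 genes in the deposited count table and 8 of the 14406 that passed the filter on low counts. RNA was measured in bulk heart tissue collected 14 days after myocardial infarction, 3 from WT mice and 3 from ACKR4_KO mice, all C57BL/6 and 8 to 10 weeks old per the labels. Infarction is shared by both genotypes, and the series holds no uninjured heart. How the ACKR4-KO allele was made, the strain of origin of the targeted cells and the number of backcrosses were not given in the sources used here. The comparison asks whether genes next to the targeted one also differ between the genotypes, as an altered allele or flanking sequence carried along with it could leave a local trace. An effect of the allele itself and one of flanking sequence cannot be told apart in this design.

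ACKR4 is an atypical chemokine receptor, a scavenger that internalises the chemokines CCL19, CCL21 and CCL25 and does not couple to G proteins. A targeted allele can carry a selection cassette or remove regulatory sequence, and in mice bred from targeted stem cells the chromosome on either side stays linked to the allele over many generations. Neighbouring genes are therefore a common check of a knockout line. The genes described here have unrelated functions, from fatty acid oxidation and endosome sorting to DNA damage signalling, and most are active in many cell types.

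Ackr4 (ENSMUSG00000079355) occupies positions 104084157 to 104126933 of chromosome 9 on the minus strand (GRCm38, the assembly of mm10, GENCODE release M21). It lies entirely inside Acad11 (ENSMUSG00000090150, 104063377 to 104127725), which is read from the plus strand. The exons of the genes share 479 bases, which is 4.9% of the exonic length of Acad11 and 8.9% of that of Ackr4. The next gene described here is Dnajc13 (ENSMUSG00000032560, 104151282 to 104262930, minus strand), whose near end lies 24.3 kb from Ackr4. At lower coordinates lie Cdv3 (ENSMUSG00000032803, 103353094 to 103365840, minus strand) at 718.3 kb, Topbp1 (ENSMUSG00000032555, 103305215 to 103350428, plus strand) at 733.7 kb, Srprb (ENSMUSG00000032553, 103188032 to 103202137, minus strand) at 882.0 kb and Ryk (ENSMUSG00000032547, 102834917 to 102908305, plus strand) at 1175.9 kb. At higher coordinates lie Nudt16 (ENSMUSG00000032565, 105128903 to 105131824, minus strand) at 1002.0 kb and Atp2c1 (ENSMUSG00000032570, 105403539 to 105527319, minus strand) at 1276.6 kb. The span from Ryk to Atp2c1 covers 2.69 Mb and holds 24 annotated protein-coding genes besides Ackr4, of which 16 were tested.

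RefSeq promoter windows (GRCm38.p6, 250 bases before to 50 after a start) were found for all 8 genes, 10 windows in all because Cdv3 and Atp2c1 each have a pair of starts. Their GC content had a median of 67.0% (range 50% to 79.7%), against a median of 52.7% over all 32841 windows and 48.7% in the window of Ackr4. The ratio of observed to expected CpG had a median of 0.92 in the 10 windows, 0.384 over all windows and 0.564 for Ackr4. Srprb, at 50% GC, and one window of Atp2c1, at 51.7%, lay close to Ackr4 in GC content, and Acad11 (0.547) and that window of Atp2c1 (0.4) lay below it in the CpG ratio. The GC box GGGCGG, searched on both strands, was present in 8 of the 10 windows (80.0%) and in 35.7% of all windows, and the CCAAT box in 3 of 10 and in 37.4% of all. TATAAA was present in 1 of 10, in 13.6% of all windows and in that of Ackr4. Printed here are the bases before the start of Dnajc13, the nearest gene that does not overlap Ackr4, and of Cdv3, the gene described here with the smallest p. Both are written 5′ to 3′ on the minus strand, at chr9:104262931-104263180 for Dnajc13 and chr9:103365841-103366030 for Cdv3, where bases inside annotated exons were left out. Capitals mark each GGGCGG or CCAAT match on either strand. Dnajc13 has 3 GC boxes and Cdv3 has 3 GC boxes and 1 CCAAT box in these stretches.
Dnajc13: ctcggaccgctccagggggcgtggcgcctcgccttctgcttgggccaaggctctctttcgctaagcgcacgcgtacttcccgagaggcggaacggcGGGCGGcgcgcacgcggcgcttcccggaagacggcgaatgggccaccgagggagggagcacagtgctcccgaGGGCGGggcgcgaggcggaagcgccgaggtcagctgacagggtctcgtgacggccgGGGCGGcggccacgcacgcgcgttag
Cdv3: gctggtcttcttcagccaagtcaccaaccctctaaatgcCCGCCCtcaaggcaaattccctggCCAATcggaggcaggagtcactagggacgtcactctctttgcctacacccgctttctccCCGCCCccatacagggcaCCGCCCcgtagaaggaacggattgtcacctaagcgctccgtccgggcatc

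Libraries held between 9422462 and 13910358 counted reads. Reads of Ackr4 itself numbered 165, 151 and 169 per WT library and 4, 1 and 12 per ACKR4_KO library, the direction that the labels give (log2 fold change -4.70, SE 0.48). Its adjusted p was 0.099 by edgeR and 3e-19 by DESeq2. In log2 CPM (read counts scaled by library size, in the usual CPM unit) across all tested genes, a comparison in which genes are no replicates, pairs of WT libraries correlated at 0.982 to 0.984 and pairs of ACKR4_KO libraries at 0.952 to 0.966. Cardiomyocyte markers were present in all libraries, with all 7 listed genes higher on average in ACKR4_KO and a summed level of 23470 to 30640 CPM in WT and 30440 to 43420 CPM in ACKR4_KO. The other lists, as summed CPM in WT and then ACKR4_KO, were fibroblast (5122 to 5623, 2302 to 6545, 6 of 7 genes lower), endothelium (1401 to 1588, 1050 to 1401, 5 of 5 lower), macrophage (473.7 to 604.4, 389.4 to 593.7, 5 of 5 lower), T and NK cell (8.54 to 13.9, 3.89 to 5.33, 5 of 5 lower) and blood (263.3 to 319.3, 136.9 to 638.9, 2 of 5 lower). Lung epithelial markers summed to 38.8 to 233 CPM in WT and 0.404 to 1.92 CPM in ACKR4_KO, with 7 of 7 lower and Sftpc, Scgb1a1 and Cldn18 at 0 reads in every ACKR4_KO library. Fast skeletal muscle markers summed to 4.12 to 86.7 CPM in WT and 2.58 to 8.20 CPM in ACKR4_KO, with 6 of 6 lower. Within ACKR4_KO the cardiomyocyte and fibroblast sums were 30440 and 4952 CPM in replicate 1, 43420 and 2302 CPM in replicate 2 and 38020 and 6545 CPM in replicate 3. Their part in the values below was not tested.

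None of the 8 genes differed between the genotypes past the threshold of 0.05 on the adjusted p. By edgeR's quasi-likelihood test, adjusted over all 14406 genes, 0 of 8 passed, where 0.0% of all genes tested were called, and the adjusted p lay between 0.682 and 0.993. At an unadjusted p under 0.05 there were 0 of 8, where 7.45% of all genes stood at that level. DESeq2 called 0 of 8 as well, where it called 0.271% of the genes with an adjusted p, and 0 of 8 had an unadjusted p under 0.05 by it. The log2 fold changes of ACKR4_KO minus WT ran from -0.231 to 0.256 with a median of -0.07, beside a median of 0.012 over all genes. The median size of the difference, without sign, was 0.136 for the 8 genes and 0.137 for the 8747 genes in the same range of levels. For 6 of the 8 the 95% interval of the fold change lay inside a 1.5-fold difference in either direction, and the exceptions were Acad11 and Nudt16. The groups did not overlap in 1 of 8 genes, Cdv3, where 14.2% of all genes did not overlap.

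**Figure D1:**
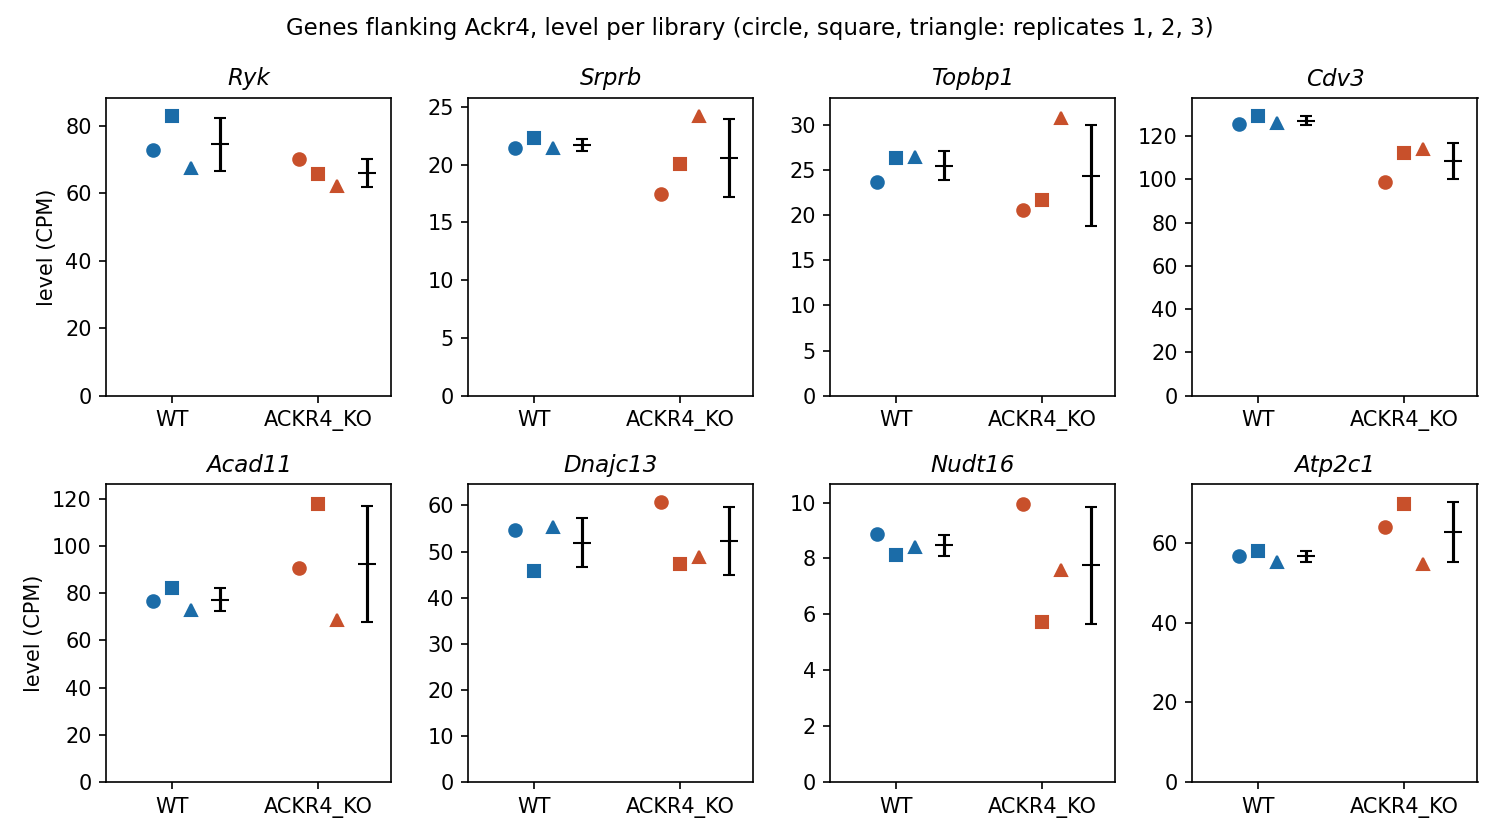
Level of each gene in CPM (vertical axis, from 0) in the WT and ACKR4_KO libraries, with the mean and SD of the 3 libraries beside the points. The groups overlap in every panel except Cdv3, where the 3 ACKR4_KO libraries lie between 98.7 and 114 CPM and the 3 WT libraries between 126 and 130 CPM.

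Acad11, the gene that contains Ackr4, had a higher mean in ACKR4_KO, by less than the spread among the ACKR4_KO libraries. It belongs to the acyl-CoA dehydrogenases, flavin enzymes that open fatty acid oxidation. Its level was 76.8, 82.4 and 72.9 CPM in WT replicates 1, 2 and 3 and 90.7, 118 and 68.8 CPM in ACKR4_KO replicates 1, 2 and 3. A pair of ACKR4_KO libraries thus stood above every WT library and the other stood below them all. The mean was 77.4 ± 4.80 CPM in WT against 92.4 ± 24.5 CPM in ACKR4_KO (SD, n = 3 each), a log2 fold change of 0.26 (SE, the standard error, 0.19, 95% interval of the fold change 0.89 to 1.6, adjusted p = 0.748 by edgeR's quasi-likelihood test). The value rested on single libraries, as it was 0.049 without ACKR4_KO replicate 2 and 0.435 without ACKR4_KO replicate 3, where the unadjusted p by edgeR was 0.0124 and the adjusted p 0.30 and where 12.5% of all genes tested had an unadjusted p under 0.05. Whether the counting used strand was not given in the sources used here, and reads in the 479 shared bases cannot be assigned between Acad11 and Ackr4 without strand. The whole Ackr4 row held at most 169 reads in a library, against 788 to 1149 reads for Acad11. Reads that the counting left unassigned would be in neither row, so these counts do not bound them. The cardiomyocyte marker sum was highest in ACKR4_KO replicate 2, where Acad11 was highest, and second highest in ACKR4_KO replicate 3, where Acad11 was lowest; its part in the values was not tested.

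The 11 other acyl-CoA dehydrogenases listed, all tested, showed 0 genes past the adjusted threshold and 0 at an unadjusted p under 0.05. Of these, 9 had a higher and 2 a lower fitted level in ACKR4_KO, with a median log2 fold change of 0.164 beside 0.012 over all genes. The most abundant was Acadm, the medium-chain enzyme, at 738 ± 60.5 CPM in WT against 845 ± 181 CPM in ACKR4_KO (n = 3 each, adjusted p = 0.815 by edgeR). Ranked by level, the 6 libraries stood in the same order for Acadm as for Acad11, with ACKR4_KO replicate 2 first and ACKR4_KO replicate 3 last. The median of the list was -0.036 without ACKR4_KO replicate 2 and 0.323 without ACKR4_KO replicate 3, where 5 of its genes had an unadjusted p under 0.05. In that fit, without ACKR4_KO replicate 3, 12.5% of all genes tested stood at that level.

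Dnajc13, the nearest gene beyond Acad11, had almost the same mean in both genotypes. It encodes a J-domain protein of endosomes (known as RME-8 in worms) that works with the retromer and the actin-regulating WASH complex in sorting cargo. Its level was 54.7, 45.8 and 55.4 CPM in the WT libraries and 60.7, 47.2 and 48.7 CPM in the ACKR4_KO libraries. The lowest and the second highest values both belonged to WT, so the groups overlapped widely. The means were 51.9 ± 5.35 CPM and 52.2 ± 7.41 CPM (n = 3 each), a log2 fold change of 0.007 (SE 0.14) and a 95% interval of the fold change of 0.80 to 1.26 (adjusted p = 0.993 by edgeR). Of 13 retromer, sorting nexin and WASH genes, 0 passed the adjusted threshold and 1 had an unadjusted p under 0.05, with a median of -0.062 (-0.034 without WT replicate 1, -0.036 without ACKR4_KO replicate 2, -0.093 without ACKR4_KO replicate 1). That gene was Vps26a, a retromer subunit, at 62.8 ± 3.51 CPM in WT against 77.0 ± 4.01 CPM in ACKR4_KO (adjusted p = 0.661 by edgeR).

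Cdv3 stood lower in every ACKR4_KO library than in any WT library, but the difference missed the test. The gene is named for its expression in the ventricle under carnitine deficiency. Its level was 126, 130 and 126 CPM in the WT libraries and 98.7, 112 and 114 CPM in the ACKR4_KO libraries. The WT libraries lay within a few CPM of each other, and the gap to the highest ACKR4_KO library was wider than their range. The mean was 127 ± 2.07 CPM in WT against 108 ± 8.36 CPM in ACKR4_KO (n = 3 each), 14.8% lower. The log2 fold change was -0.23 (SE 0.11, 95% interval of the fold change 0.71 to 1.02, unadjusted p = 0.0742 and adjusted p = 0.682 by edgeR). The exact two-sided permutation test gave p = 0.1 (0.8 when adjusted over the 8 genes), the smallest value that the 20 splits of 3 against 3 allow. All ACKR4_KO libraries were below all WT libraries in 7.63% of all genes tested. The value was -0.169 without ACKR4_KO replicate 1 and -0.264 without ACKR4_KO replicate 3, where the unadjusted p by edgeR was 0.0463 and the adjusted p 0.391, in the same fit as for Acad11. The processed pseudogene Cdv3-ps on chromosome 14 had 33 reads over all libraries, against 1097 to 1831 reads per library for Cdv3.

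Topbp1 and Srprb, which lie next along the chromosome, varied within ACKR4_KO more than between the genotypes. Topbp1 is a scaffold protein that activates the ATR kinase at damaged or stalled replication forks. Its level was 23.7, 26.3 and 26.4 CPM in WT and 20.6, 21.7 and 30.8 CPM in ACKR4_KO. ACKR4_KO replicate 3 had the highest level of all libraries and the other 2 ACKR4_KO libraries the lowest. The log2 fold change was -0.06 (SE 0.17, 95% interval of the fold change 0.73 to 1.25, adjusted p = 0.937 by edgeR), and it was -0.264 without that replicate. Among 12 tested genes of the ATR checkpoint 0 passed the adjusted threshold and 0 had an unadjusted p under 0.05. The median of this list was 0.106. Without ACKR4_KO replicate 3 it was -0.147, and 2 of 12 stood at that level, beside 12.5% of all genes tested. The median was 0.062, 0.177 and 0.195 without WT replicate 1, WT replicate 2 and ACKR4_KO replicate 2. Mdc1, a chromatin adaptor, was the most abundant of the list. Its level was 19.6 ± 0.337 CPM in WT against 21.2 ± 2.47 CPM in ACKR4_KO (n = 3 each).

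Srprb encodes the membrane-bound beta subunit of the receptor that brings ribosomes making secreted proteins to the endoplasmic reticulum. Its level was 21.4, 22.3 and 21.4 CPM in WT and 17.4, 20.1 and 24.2 CPM in ACKR4_KO. The libraries of ACKR4_KO lay on both sides of the narrow WT range. The log2 fold change was -0.08 (SE 0.15, 95% interval of the fold change 0.75 to 1.20, adjusted p = 0.910 by edgeR). The value was -0.207 without ACKR4_KO replicate 3. Of the 10 other genes of the signal recognition particle, its receptor and the Sec61 channel, 9 had a higher and 1 a lower fitted level in ACKR4_KO, with a median of 0.092, 0 past the adjusted threshold and 0 at an unadjusted p under 0.05. Without ACKR4_KO replicate 1 the median was 0.166 and 2 of 10 stood at that level, beside 13.1% of all genes tested. The most abundant, Srpr, the alpha subunit that Srprb anchors, was at 114 ± 5.13 CPM in WT against 119 ± 4.98 CPM in ACKR4_KO (n = 3 each). The predicted gene Gm20425 shares 888 exonic bases with Srprb on the same strand and had 0 reads in all libraries, and with the common counting rules reads in a shared stretch may be assigned to neither.

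Ryk, the farthest gene at lower coordinates, encodes a receptor for Wnt proteins whose kinase domain is thought to be inactive. Its level was 72.7, 82.9 and 67.6 CPM in WT and 70.2, 65.6 and 62.2 CPM in ACKR4_KO. The groups overlapped, and of the 9 pairs of an ACKR4_KO and a WT library the ACKR4_KO library was lower in 8. The means were 74.4 ± 7.81 CPM and 66.0 ± 4.03 CPM (n = 3 each), a log2 fold change of -0.17 (SE 0.12, 95% interval of the fold change 0.73 to 1.08, adjusted p = 0.745 by edgeR). It was -0.089 without WT replicate 2, the highest library. The 16 tested Wnt receptors and co-receptors had 2 higher and 14 lower fitted levels, with a median of -0.176, 0 past the adjusted threshold and 0 at an unadjusted p under 0.05. Without ACKR4_KO replicate 2, the library with the lowest summed fibroblast markers, the median of this list was 0.054. Any part of fibroblast content in this was not tested. Without ACKR4_KO replicate 3 the median was -0.355, with 4 of 16 at an unadjusted p under 0.05, beside 12.5% of all genes tested. The most abundant, Fzd4, a Frizzled receptor prominent in endothelium, was one of the 2 with a higher mean and was at 136 ± 17.8 CPM in WT against 150 ± 25.6 CPM in ACKR4_KO (n = 3 each).

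On the other side of Ackr4, Nudt16 was the least abundant of the 8 in CPM. It encodes a hydrolase of inosine diphosphates that also removes caps from small nucleolar RNA. Its level was 8.87, 8.13 and 8.40 CPM in WT and 9.93, 5.74 and 7.59 CPM in ACKR4_KO, from 56 to 123 reads per library. ACKR4_KO libraries were both the highest and the lowest. The log2 fold change was -0.12 (SE 0.23), and the 95% interval of the fold change was wide, 0.64 to 1.31 (adjusted p = 0.908 by edgeR). It was -0.342 without ACKR4_KO replicate 1 and 0.054 without ACKR4_KO replicate 2. Of the 21 genes in the list of other Nudix hydrolases and Itpa, a further enzyme that clears inosine nucleotides, 13 were higher and 8 lower, with a median of 0.062 (0.01 without WT replicate 3, and 0.022 without WT replicate 2 or ACKR4_KO replicate 2), 0 past the adjusted threshold and 0 at an unadjusted p under 0.05. The most abundant of them, Nudt4, was at 195 ± 7.54 CPM in WT against 194 ± 16.5 CPM in ACKR4_KO (n = 3 each).

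Atp2c1 encodes the calcium and manganese pump of the Golgi apparatus, whose human counterpart is mutated in the skin disorder Hailey-Hailey disease. Its level was 56.8, 57.9 and 55.1 CPM in WT and 64.0, 69.7 and 54.7 CPM in ACKR4_KO. The order of the libraries was the same as for Acad11, with ACKR4_KO replicate 3 the lowest and ACKR4_KO replicate 2 the highest. The means were 56.6 ± 1.42 CPM and 62.8 ± 7.55 CPM (n = 3 each), a log2 fold change of 0.15 (SE 0.12, 95% interval of the fold change 0.91 to 1.35, adjusted p = 0.778 by edgeR). The value was 0.074 without ACKR4_KO replicate 2 and 0.245 without ACKR4_KO replicate 3. Atp2c1 lies just beyond the stretch of chromosome 9 by which the genes were described, and was kept because it was named among them. It shares 1837 exonic bases with Aste1 on the opposite strand, which had 34 to 80 reads per library.

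Of 8 related calcium pumps 5 were tested, 2 higher and 3 lower, with a median of -0.11 and 0 past the adjusted threshold. The median turned to 0.032 without ACKR4_KO replicate 3, and it was -0.021 without WT replicate 3, -0.031 without ACKR4_KO replicate 2 and -0.199 without ACKR4_KO replicate 1. The 1 gene at an unadjusted p under 0.05 was Atp2a1, the pump of fast skeletal muscle. It was at 0.545, 16.3 and 28.4 CPM in WT and 0.242, 1.23 and 0.611 CPM in ACKR4_KO (adjusted p = 0.661 by edgeR). Its high WT libraries were replicates 2 and 3, which also held the summed fast skeletal muscle markers at 73.2 and 86.7 CPM, against 4.12 CPM in WT replicate 1.

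Per exonic length (RPKM, the CPM divided by the merged exon length in kilobases from GENCODE), the order of the levels in WT was Cdv3 at 17.2 ± 0.28, Ryk at 16.4 ± 1.72, Acad11 at 7.90 ± 0.489, Atp2c1 at 5.84 ± 0.147, Srprb at 5.07 ± 0.124, Dnajc13 at 4.35 ± 0.448, Nudt16 at 3.27 ± 0.145 and Topbp1 at 2.27 ± 0.141 (n = 3 each). Cdv3 and Ryk overlapped over the libraries, while the other neighbours in this order did not. The merged lengths include exonic bases shared with another gene, 20.7% of the length of Srprb and 18.9% of that of Atp2c1. Reads in such bases may have been assigned to neither gene, so the order of Atp2c1 and Srprb may depend on how they were counted. In ACKR4_KO the order of the means was the same, with Cdv3 at 14.6 ± 1.13 and Ryk at 14.6 ± 0.889 RPKM. The spread was larger in ACKR4_KO for 7 of the 8 genes, the exception being Ryk. The coefficient of variation lay between 1.6% and 10.5% in WT and between 6.1% and 27.1% in ACKR4_KO. In bulk tissue, fewer cells of a type and less RNA per cell cannot be told apart.

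**Figure D2:**
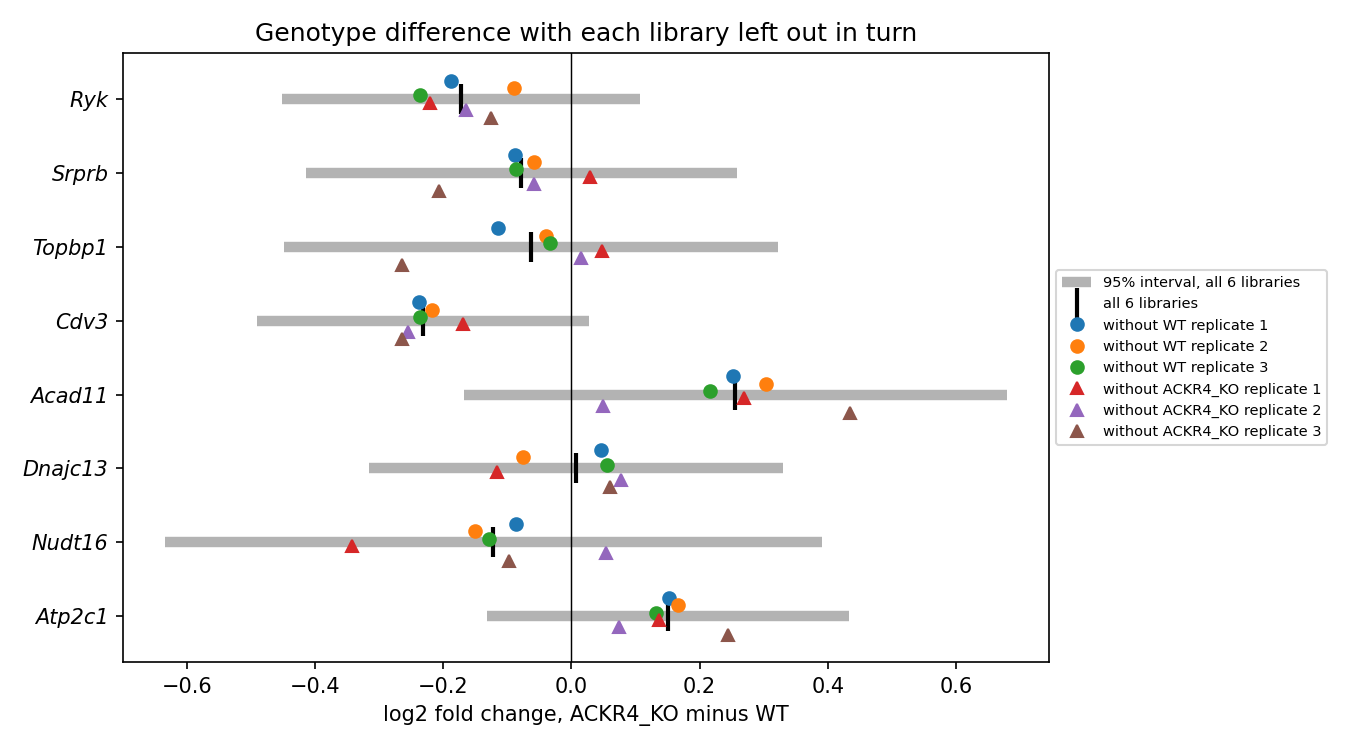
Log2 fold change (horizontal axis) of each gene with all 6 libraries, its 95% interval (grey bar), and with each library left out in turn (points). Acad11 runs from 0.049 to 0.435 and stays above 0, Cdv3 runs from -0.264 to -0.169 and stays below it, and the values of Srprb, Topbp1, Dnajc13 and Nudt16 fall on both sides.

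The other genes between Ryk and Atp2c1 that were tested number 9, and 0 of them passed the adjusted threshold, as in the whole table. At an unadjusted p under 0.05 there were 3 of 9, where 7.45% of all genes stood at that level, and in 4 of 9 the groups did not overlap, where 14.2% of all genes did not. Counted with the 8 genes above, these make 3 of 17 (17.6%) and 5 of 17 (29.4%).

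Among these 9, Slco2a1 and Rab6b were lower in every ACKR4_KO library than in any WT library. Slco2a1, a prostaglandin transporter of endothelium, lies 988.2 kb from Ackr4 and was at 23.3, 18.7 and 19.9 CPM in WT and 16.5, 9.84 and 7.68 CPM in ACKR4_KO. Its log2 fold change was -0.86 (SE 0.26, unadjusted p = 0.0104, adjusted p = 0.612 by edgeR). The summed endothelial markers ran from 1401 to 1588 CPM in WT and from 1050 to 1401 CPM in ACKR4_KO, and those of lung epithelium were also lower in every ACKR4_KO library. Their part in the difference was not tested. Rab6b, a small GTPase of Golgi transport that lies between Slco2a1 and Srprb, was at 37.0 ± 1.62 CPM in WT against 26.6 ± 4.65 CPM in ACKR4_KO (n = 3 each, log2 fold change -0.47, standard error 0.14, adjusted p = 0.611 by edgeR). Srprb and Ryk, which lie on either side of this pair, had log2 fold changes of -0.08 and -0.17.

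**Figure D3:**
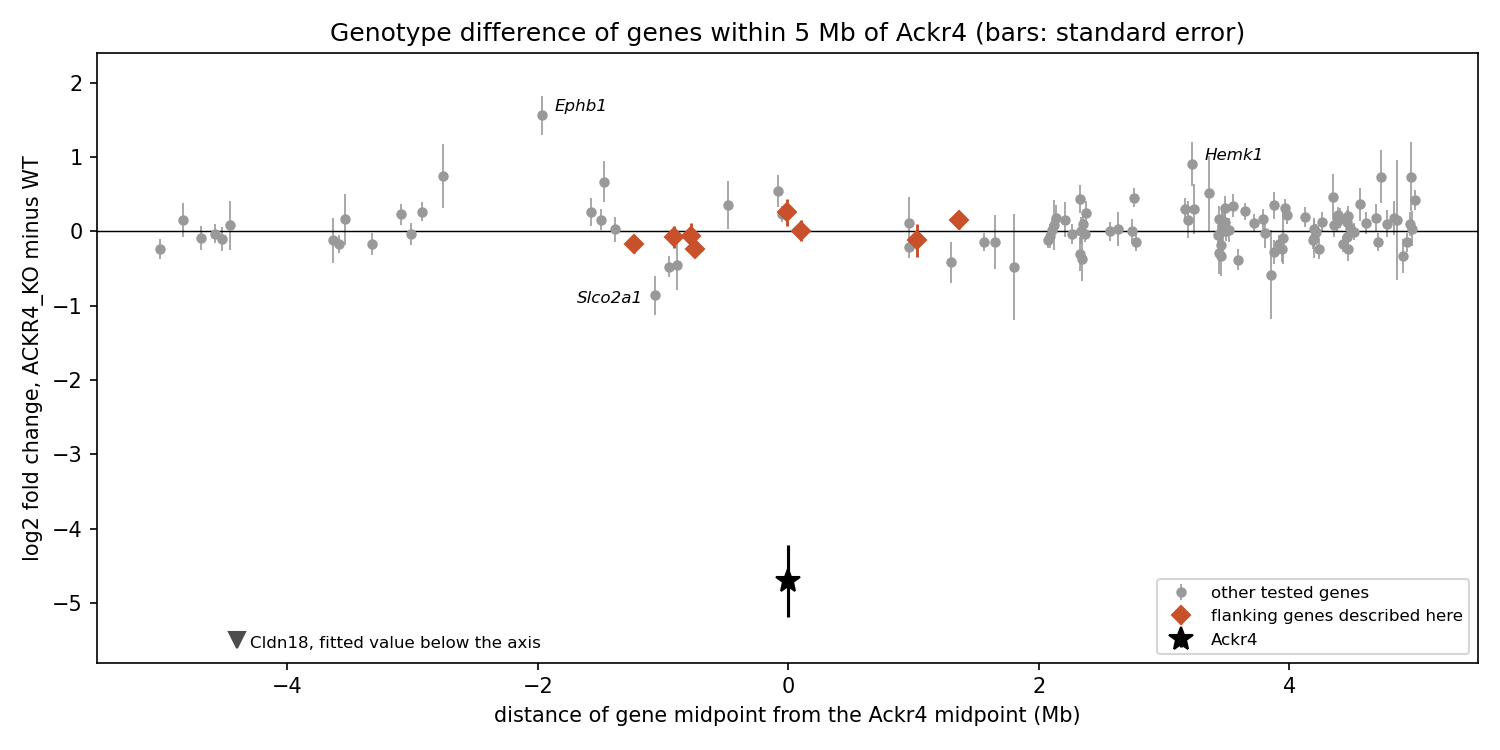
Log2 fold change with standard error (vertical axis) of the tested genes within 5 Mb of Ackr4 against the distance between gene midpoints in Mb. The 8 flanking genes (diamonds) lie between -0.231 and 0.256, Ackr4 (star) at -4.70, and Ephb1 at 1.56. Cldn18 had 0 reads in ACKR4_KO and is drawn at the edge.

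Within 5 Mb of Ackr4, 124 genes besides Ackr4 were tested, the 8 among them. Of these, 0 passed the adjusted threshold by edgeR and 13 (10.5%) had an unadjusted p under 0.05, 9 higher and 4 lower, beside 10.7% of the 675 tested genes on the rest of chromosome 9 and 7.45% of all genes. The median log2 fold change was 0.03 within 5 Mb and -0.02 beyond it. In narrower windows the counts were 3 of 13 genes within 1 Mb (23.1%) and 5 of 25 within 2 Mb (20%), and in a wider one 17 of 184 within 10 Mb (9.24%). Leaving out libraries moved the count within 5 Mb to 7 (without WT replicate 3) and 21 (without ACKR4_KO replicate 3). These are 5.6% of 125 and 16.7% of 126 genes, beside 3.27% and 12.5% of all genes tested in the same fits.

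Higher in ACKR4_KO within 5 Mb, and with the smallest p in that direction, were Ephb1, Manf, Plxnb1 and Hemk1. Ephb1, a receptor for ephrin-B ligands 1729.5 kb from Ackr4, was at 8.95, 9.77 and 12.3 CPM in WT and 25.8, 43.7 and 22.9 CPM in ACKR4_KO. Its log2 fold change was 1.56 (SE 0.26), and its adjusted p was 0.429 by edgeR's quasi-likelihood test and 5.21e-05 by DESeq2, and 0.0233 by edgeR with no filter on low counts. Manf, a protein of the endoplasmic reticulum stress response, Plxnb1, a semaphorin receptor, and Hemk1, a methyltransferase, had log2 fold changes of 0.45, 0.43 and 0.90 and adjusted p of 0.606, 0.654 and 0.661 by edgeR, and lie more than 2 Mb away. Without ACKR4_KO replicate 3, its highest library, Hemk1 was at 0.521.

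Among the lower genes, besides Slco2a1 and Rab6b, stood Cldn18 and Sema3f. Sema3f, a secreted semaphorin, had a log2 fold change of -0.38 (adjusted p = 0.661 by edgeR). Cldn18, a tight junction claudin of lung and stomach epithelium and a member of the lung marker list, had 78, 11 and 48 reads in WT and 0 in each ACKR4_KO library, where 3 reads correspond to at most 0.307 CPM. Its adjusted p was 0.462 by edgeR, 2.01e-05 by DESeq2 and 0.013 by edgeR with no filter on low counts. The lung surfactant gene Sftpc, which lies elsewhere in the genome, had 1943, 237 and 1088 reads in the same WT libraries and 0 in each ACKR4_KO library. Both were highest in WT replicate 1 and lowest in WT replicate 2 among the WT libraries.

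Likeness of pattern was measured by Pearson's r of log2 CPM over the 6 libraries, which differ in sequencing depth and in genotype. It is given as a description for the 2 genes with the smallest p. Closest to Cdv3 were Arhgef5 (r = 0.986), Ets1, a transcription factor (0.985), and Crispld1 (0.985). Closest to Ryk were Clec4a1, a C-type lectin (0.997), Sh3gl3, an endophilin (0.987), and Pcnx2 (0.985). Sh3gl3 and Pcnx2 had low mean levels, 1.64 and 1.09 CPM in WT and 0.854 and 0.583 CPM in ACKR4_KO. All these genes were picked for the highest r among all tested genes over 6 libraries, a choice that favours high values for any gene. Ets1 lies on chromosome 9 and the other 5 genes on other chromosomes, and none of the 6 is one of the 8 genes flanking Ackr4.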

How the data were processed

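The authors deposited raw read counts per Ensembl gene, not normalized, for each of the 6 libraries. CASAVA 1.8.2, HISAT2, HTSeq 0.6.0 and the build mm10 are named in the submitters' processing notes, while annotation release and strand setting were not given in the sources used here. Of 54532 rows, 54409 matched a symbol and 0 named no gene. Coordinates came from GENCODE release M21 (GRCm38).

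Genes were kept with filterByExpr of edgeR 4.0.16 (minimum count 10, total 15), and 14406 were tested with TMM factors by the two-sided robust quasi-likelihood test, adjusted by the Benjamini-Hochberg method across these genes with a threshold of 0.05. CPM used TMM-scaled library sizes. A standard error is the size of the log2 fold change over the square root of F. The 95% intervals use the total degrees of freedom of the quasi-likelihood test, not the residual ones alone. Exact permutation tests used log2(CPM + 0.5). The script was tested on simulated data. DESeq2 1.42.0, limma-voom (limma 3.58.1) and R 4.3.3 were used for the alternatives. Total counts ran from 9422462 to 13910358. Floors set from counts cover counting error only, while the 95% intervals also include the spread between libraries. The labels do not say that replicates are separate animals, so p-values measure the spread between these samples.

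The 8 genes, the 7 lists of related genes and the 8 marker lists were chosen with earlier results of these data known. Named genes were the 8, Ackr4, up to 4 others per direction within 5 Mb with the smallest p, up to 2 per list with an unadjusted p under 0.05 or else the most abundant, and, for the 2 of the 8 with the smallest p, the 3 genes most alike. Some genes near Ackr4 enter the counts and are not reported here by name.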

Additional observations from a re-analysis of the deposited data

How the results depend on the processing

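For the 8 flanking genes 15 alternatives were run each, 120 fits in all, and 0 of them passed the adjusted threshold. The sign turned in 7 fits of 4 genes, with values of -0.003 for Dnajc13 with upper-quartile factors, -0.075 and -0.116 for Dnajc13 without WT replicate 2 and without ACKR4_KO replicate 1, 0.029 for Srprb and 0.047 for Topbp1 without ACKR4_KO replicate 1, and 0.015 for Topbp1 and 0.054 for Nudt16 without ACKR4_KO replicate 2. With a library left out the values ran from -0.207 to 0.029 for Srprb, -0.264 to 0.047 for Topbp1, -0.116 to 0.077 for Dnajc13 and -0.342 to 0.054 for Nudt16. The count of the 8 at an unadjusted p under 0.05 then lay between 0 and 2, and the 2, without ACKR4_KO replicate 3, were Acad11 and Cdv3, in a fit where 12.5% of all genes stood at that level. The count within 5 Mb lay between 7 and 21, and it was 3 and 5 in windows of 1 and 2 Mb, which hold fewer genes. Over all genes the count past the adjusted threshold was 39 by DESeq2, 24 with no filter on low counts, 6 with the replicate block and between 0 and 1 with a library left out, against 0 (1073 at an unadjusted p under 0.05) in the edgeR test reported, and the cause was not tested. Ackr4 passed by DESeq2 (adjusted p = 3e-19), with no filter (8.58e-05) and without ACKR4_KO replicate 3 (0.00331). Ephb1 (5.21e-05 and 0.0233) and Cldn18 (2.01e-05 and 0.013) passed by DESeq2 and with no filter.

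Same-numbered samples had correlations of their deviations of 0.067, 0.053 and 0.125. Not all were above 0.1, so the numbers were not taken as pairs, although 5 of 6 samples correlated best with their own number, a hint from the data and not from the design. With the replicate block 0 of the 8 genes passed and Cdv3 was at -0.234. The median of all genes moved by at most 0.012 under any scaling. The fewest reads were those of Nudt16, 56 to 123 per library.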
